A study of Schizosaccharomyces pombe with 2 samples.

Results

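The shugoshin genes *sgo1* and *sgo2*, the genes for the checkpoint kinase Bub1 and its partner Bub3, the 4 genes of the chromosomal passenger complex (CPC; *ark1*, *bir1*, *pic1* and *nbl1*) and the haspin kinase gene *hrk1* were followed on the arrays of *sgo2*Δ and wt cells. They were taken by name, as the probe sets whose platform gene symbol is exactly that of the *S. pombe* gene. All 9 genes had 1 probe set each, out of 2898 genes that a probe set names alone. Cells deleted for *sgo2* (strain JP2247) were set against wt cells (strain JK107). Both strains are of the *h*- mating type and were grown exponentially at 32 °C in YES, a rich liquid medium. Biotin-labelled cRNA made from 0.3 μg of poly(A) RNA of each strain went onto 1 array, which carries probe sets for *S. pombe* and *S. cerevisiae*. There is 1 array per strain, so the differences have no replicate error and no p-values, and the deletion cannot be told apart from any other difference between the strains or cultures.

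Shugoshins are conserved centromeric proteins. Sister chromatids are held together by cohesin, and the meiotic cohesin subunit Rec8 survives at *S. pombe* centromeres through the first division under the guard of Sgo1 and its partner PP2A, a phosphatase. Sgo2 also works in dividing vegetative cells, where centromeres need it to gather the CPC. Bub1 phosphorylates histone H2A near its C terminus, and shugoshin binds chromatin that carries this mark. The CPC consists of the Aurora kinase Ark1, the INCENP homologue Pic1, the survivin homologue Bir1 and the small borealin-like protein Nbl1. Hrk1 phosphorylates histone H3, which gives Bir1 a binding site of its own. The comparison asked whether loss of *sgo2* alters the transcripts of the proteins that place Sgo2 or work with it.

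The deposited signals are linear intensities that the authors had already scaled. Genes were called higher or lower if the signal differed at least 2-fold between the arrays and the brighter signal reached 100. This floor lies above the 17 tag probe sets, whose targets are not in yeast RNA and which reached at most 43.9 in *sgo2*Δ and 47.7 in wt. Of 2795 genes that reached the floor, 0.537% were called higher and 0.0358% lower in *sgo2*Δ. Log2 ratios (*sgo2*Δ over wt) had a median of 0.13 over these genes, and 95% of them lay between -0.18 and 0.41. Spiked-in controls also differed between the arrays, with a median log2 ratio of 0.51 for 12 poly(A) control probe sets and 0.10 for 9 hybridization control probe sets. The part of these shifts in the values of single genes was not tested. Probe sets differ in how brightly they bind, so levels are compared between the arrays and not between genes.

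The deletion was visible in its own transcript. The signal of *sgo2* was 2.81 in *sgo2*Δ and 582 in wt, so the *sgo2*Δ signal lay within the range of the tag probe sets. Against the floor it was at least 5.82-fold lower. Of 2795 genes tested, *sgo2* was the one called lower, and of 9 members it was the one called in either direction. Its signal checks the label of the *sgo2*Δ array.

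The other shugoshin gene, *sgo1*, had a signal of 528 in *sgo2*Δ and 464 in wt, a log2 ratio of 0.19. The probe set of *sgo1* thus gave a clear signal on both arrays of growing cells, and the difference was 1.14-fold. This gene overlaps the protein-coding gene *txc1*, which was not measured, and the part of *txc1* in the signal was not tested. Its log2 ratio exceeded that of 63% of the 200 other genes nearest in mean signal, 95% of which lay between -0.26 and 0.45. Cells in meiosis would be marked by other transcripts, and a list of 15 meiosis genes was therefore read beside *sgo1*. Of these, 8 in *sgo2*Δ and 11 in wt lay under the floor, among them *moa1*, which encodes a meiotic kinetochore protein and had signals of 1.77 in *sgo2*Δ and 1.39 in wt. The transcript of *rec8*, the meiotic cohesin subunit that Sgo1 protects, also lay under the floor, at 40.5 in *sgo2*Δ and 18.8 in wt. The summed signal of the 15 meiosis genes was 1428 in *sgo2*Δ and 1239 in wt. Of the 7 that reached the floor, none was called, and 3 reached it in *sgo2*Δ alone, which makes their median no measure of the list. Among these 7, the ends of the range were *rec25* (log2 ratio 0.64, signal 113 in *sgo2*Δ and 72.5 in wt) and *mes1* (-0.03, 330.1 and 337.2). Since *rec25* is among those 3, the top of the range is no measure of the list either. The paper, citing earlier work, describes expression of Sgo1 as specific to meiosis I. That statement names the protein, whereas the arrays measured RNA. Both cultures were *h*- cells growing in rich medium, and whether any cells in meiosis contributed to the signal of *sgo1* was not tested.

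**Figure D1:**
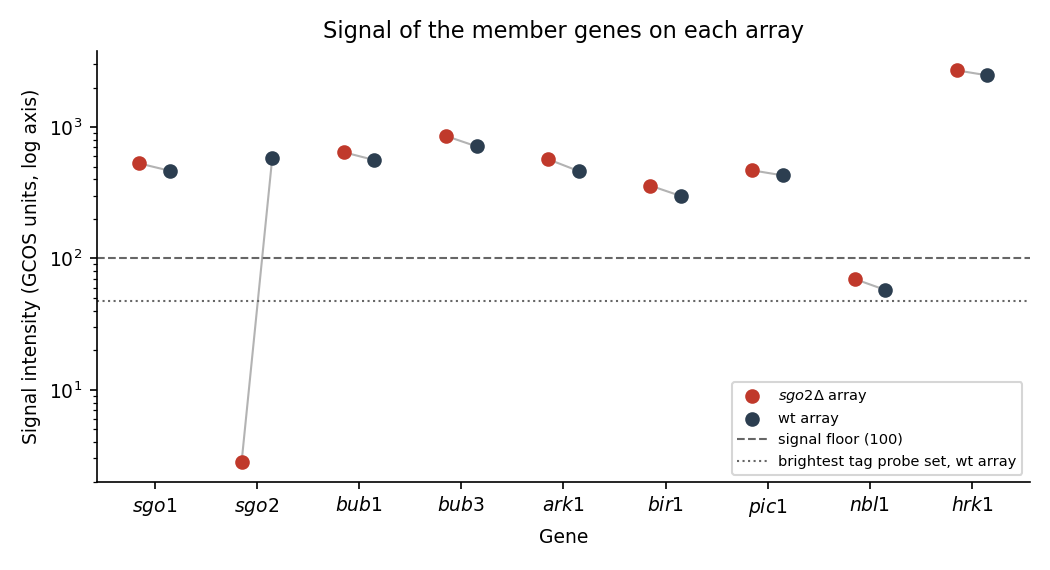
Signal intensity (log axis) of the 9 genes on the *sgo2*Δ array (red, left of each pair) and the wt array (dark blue, right), 1 array per strain, with the signal floor of 100 (dashed) and the brightest tag probe set of the wt array (dotted). The *sgo2* point drops to 2.81 in *sgo2*Δ, against 582 in wt; *nbl1* lies under the floor on both arrays and the other 7 genes are above it on both.

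The kinase that marks H2A for shugoshin and its checkpoint partner stayed near their wt signals. For *bub1*, the signal was 644 in *sgo2*Δ and 561 in wt (log2 ratio 0.20, 1.15-fold). For *bub3*, which encodes a WD-repeat protein that binds Bub1, it was 856 in *sgo2*Δ and 713 in wt (0.26, 1.20-fold). Neither was called. Set against the genes nearest in signal, *bub1* exceeded 69% of them and *bub3* 87%, and both lay inside the range that held 95% of those genes (-0.25 to 0.45 for *bub1*, -0.16 to 0.35 for *bub3*).

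Among the CPC genes, the Aurora kinase gene *ark1* had the highest log2 ratio, 0.30, with a signal of 569 in *sgo2*Δ and 462 in wt (1.23-fold). The survivin homologue *bir1* had a signal of 358 in *sgo2*Δ and 299 in wt (0.26, 1.20-fold). The INCENP homologue *pic1*, the scaffold of the complex, had 468 in *sgo2*Δ and 428 in wt (0.13, 1.09-fold). The subunits thus did not share one ratio, with *pic1* at the median of all genes and *ark1* above 89.5% of the 200 genes of like signal, yet none of the 3 was called. The range that held 95% of those genes was -0.26 to 0.39 for *ark1*, -0.29 to 0.54 for *bir1* and -0.21 to 0.48 for *pic1*, so the spacing of the subunits is smaller than the spread of single genes. The smallest subunit gene, *nbl1*, had a signal of 69.8 in *sgo2*Δ and 57.6 in wt, under the floor on both arrays, and no ratio is drawn from it.

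The haspin kinase gene *hrk1* had a signal of 2704 in *sgo2*Δ and 2476 in wt, a log2 ratio of 0.13 that coincided with the median of all genes. At this brighter signal, 95% of the nearest genes lay between -0.03 and 0.37, and *hrk1* exceeded 34.5% of them. Its ratio and that of *pic1* were the lowest of the 7 members measured on both arrays apart from *sgo2*.

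**Figure D2:**
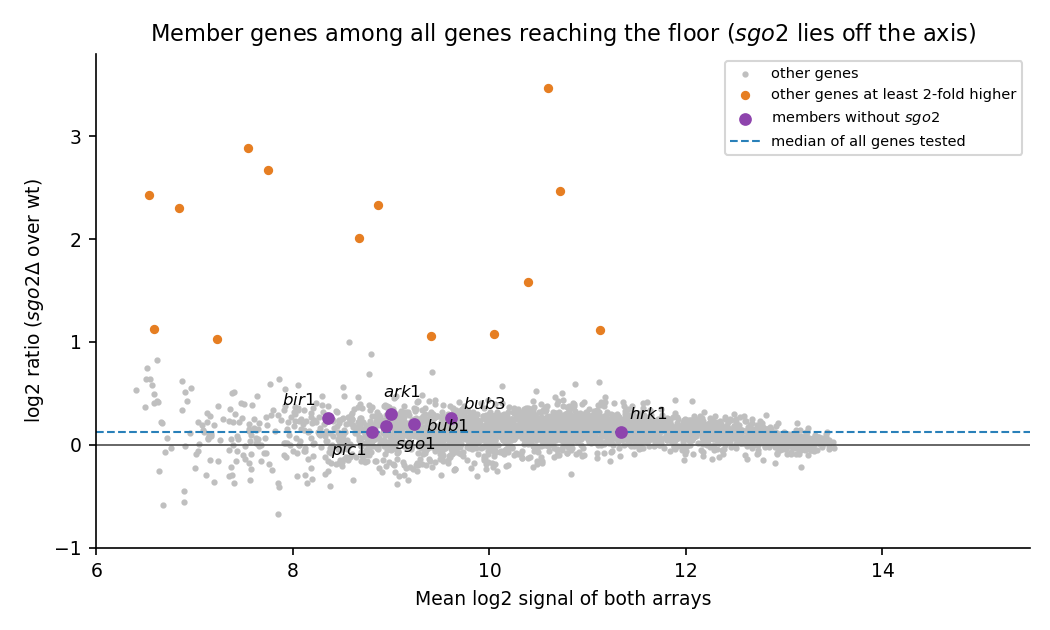
Log2 ratio of *sgo2*Δ over wt against the mean log2 signal of both arrays, 1 point per gene reaching the floor. The 7 members other than *sgo2* (purple) lie between 0.13 and 0.30, inside the cloud of other genes (grey) and near the median of all genes (dashed, 0.13); *sgo2*, at a measured log2 ratio of -7.69, is off the axis, and the genes called higher are orange.

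Over these 7 members the median log2 ratio was 0.20, beside 0.13 over all genes tested, and 0 of 7 were called, beside 0.572% of all genes tested. At that share, 0 of 7 says nothing particular to these genes. With *sgo2* included the median of 8 was 0.19. All 7 lay above 0, as did 84.7% of all genes tested, and 5 of 7 lay above the median of all genes. The direction of these small ratios depended on how the arrays were scaled. After centring on the median of all genes, as after quantile normalization, *pic1* and *hrk1* fell below 0 and 5 of 7 stayed above it, with medians over the 7 of 0.07 and 0.03. When the ratios were centred on the poly(A) controls instead, all 7 fell below 0 (-0.39 to -0.21), whereas centring on the hybridization controls left all 7 above it (0.02 to 0.20). The median of all genes tested moved with them, to -0.38 on the poly(A) controls and 0.03 on the hybridization controls. The log2 ratios of the 12 poly(A) control probe sets themselves ran from 0.11 to 0.92. Centring cannot change the order of the genes, and with quantile normalization, which can, *ark1* again had the highest ratio of the 7. No scaling brought any of the 7 to a 2-fold difference.

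**Figure D3:**
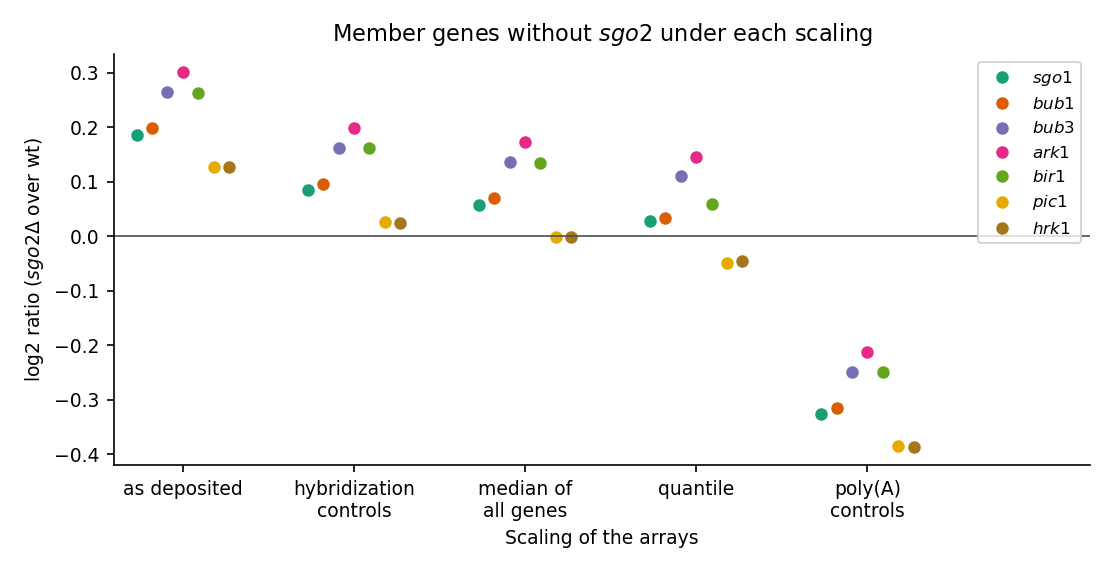
Log2 ratio of *sgo2*Δ over wt for the 7 members other than *sgo2* and *nbl1* under 5 scalings of the arrays, 1 point per gene. As deposited all 7 are above 0; *pic1* and *hrk1* drop below it after centring on the median of all genes or quantile normalization, and all 7 do so after centring on the poly(A) controls.

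The genes that act next to these proteins were read as lists by role. Together the lists hold 33 genes, of which 31 reached the floor, and 0 of the 31 were called, beside 0.572% of all genes tested in either direction, so that a count of 0 does not set these genes apart. The histone H2A list holds the genes of H2A, the substrate of Bub1, and the gene of the variant H2A.Z. It had a median log2 ratio of 0.03 over 3 genes, from *hta1* (0.01, signal 7428 in *sgo2*Δ and 7375 in wt) to *pht1*, the H2A.Z gene (0.12, 4445 and 4088). The 6 genes of Bub1 recruitment and the spindle checkpoint had a median of 0.22. Their lowest was *slp1*, the activator of the anaphase-promoting complex (-0.02, signal 826 in *sgo2*Δ and 839 in wt). Their highest was the checkpoint gene *mad2* (0.30, 1131 and 921). Of the 6, 5 lay above 0, beside 84.7% of all genes tested, and subtracting the poly(A) control median (0.51) would place all 6 below it.

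The heterochromatin and Set2 list had a median log2 ratio of 0.19 over 4 genes. Its ends were *chp2*, which encodes an HP1 protein (0.09, signal 733 in *sgo2*Δ and 690 in wt), and *set2*, the H3K36 methyltransferase gene (0.30, 1800 and 1463). Both phosphatase lists lay lower. The 6 PP2A genes had a median of 0.11, from the regulatory subunit gene *par2* (-0.13, signal 690 in *sgo2*Δ and 756 in wt) to the scaffold subunit gene *paa1* (0.17, 2243 and 1991). The 3 PP1 genes had a median of 0.10, from the catalytic subunit gene *dis2* (-0.09, signal 4172 in *sgo2*Δ and 4440 in wt) to the regulatory subunit gene *sds22* (0.25, 4006 and 3362).

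The cohesin and separase list was the widest. Of its 11 genes, 9 reached the floor, with a median log2 ratio of 0.23. The cohesin subunit gene *psm3* had the highest value (0.48, signal 753 in *sgo2*Δ and 538 in wt). The securin gene *cut2*, whose product holds separase inactive, had the lowest (-0.40, signal 291 in *sgo2*Δ and 383 in wt). Both values lie outside the range that held 95% of all genes, and neither reached 1.5-fold, a threshold passed by 1.11% of the genes tested in either direction. Transcripts that peak in mitosis and septation or at G1/S were read as a check on the cell cycle stages in the cultures, since several members act in mitosis. The 10 measured mitosis genes had a median of 0.11, from *fkh2* (-0.17, signal 341 in *sgo2*Δ and 383 in wt) to *klp5* (0.32, 1209 and 969), with a summed signal of 9626 in *sgo2*Δ and 8605 in wt. The 10 G1/S genes had a median of 0.11, from *mik1* (-0.29, 150.3 in *sgo2*Δ and 184 in wt) to *cig2* (0.26, 1925 and 1605), with a summed signal of 13229 in *sgo2*Δ and 12065 in wt. Both medians were close to that of all genes, and neither list had a gene called.

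**Figure D4:**
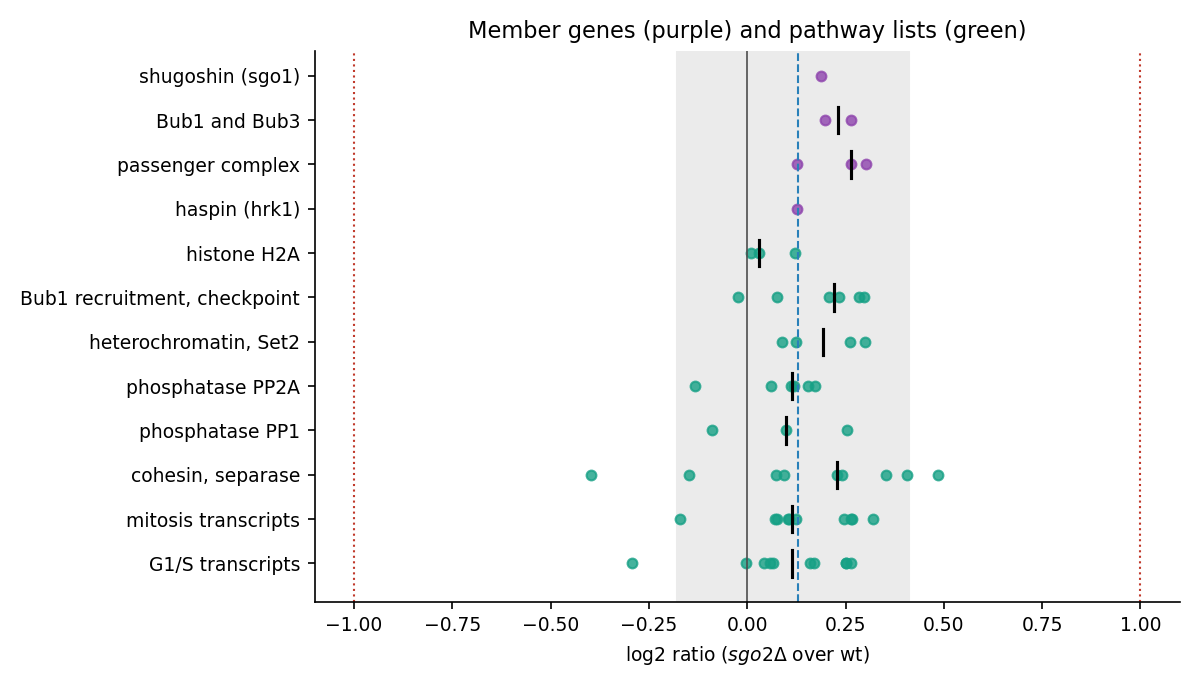
Log2 ratios of *sgo2*Δ over wt for members (purple) and pathway lists (green), 1 point per gene reaching the floor, without *sgo2*; black bars are list medians, the dashed line is the median of all genes (0.13), the grey band holds 95% of all genes, and dotted red lines mark 2-fold. No point reaches either dotted line; *psm3* (0.48) and *cut2* (-0.40) are the ends of the cohesin list.

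The genes beside the deleted locus were compared with those beside the other members. By gene order in the assembly ASM294v3, *sgo2* lies on chromosome 1 between *ppk3*, named for a putative protein kinase, and *bud6*, which encodes an actin-associated cell polarity factor. The signal of *bud6* was 442 in *sgo2*Δ and 299 in wt, a log2 ratio of 0.57 (1.48-fold) that exceeded 98.9% of all genes tested. The signal of *ppk3* was 507 in *sgo2*Δ and 620 in wt, a log2 ratio of -0.29, and 0.859% of all genes lay lower. The 2 nearest neighbours of *sgo2* thus lay at opposite ends of the distribution of all genes, although neither was called. Neither was ranked against the genes nearest to it in signal. For members of similar signal, the ranges of log2 ratios given above for genes of like signal were wider than that of all genes. They ran from -0.29 to 0.54 around *bir1* and from -0.25 to 0.45 around *bub1*. The value of *bud6* lay just above the range around *bir1*, and that of *ppk3* just below the range around *bub1*. Next to the other 8 members, 11 genes were measured and their log2 ratios ran from -0.09 to 0.38 (median 0.07). Signals of these 11 in wt ran from 134 to 8662 and were not matched to those of *bud6* and *ppk3*.

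Farther from *sgo2*, up to 8 protein-coding genes away on each side, 6 genes reached the floor. Their log2 ratios ran from 0.04 (*rpl42*) to 0.39 (*mde6*), all inside the range that held 95% of all genes. Around the other members, 65 genes at such places ran from -0.38 to 0.46. The window of 8 genes was chosen after the values of the neighbours were seen. The log2 ratio of *bud6* stayed above 0 under every scaling, between 0.05 (centred on the poly(A) controls) and 0.57. That of *ppk3* lay between -0.80 (centred on the poly(A) controls) and -0.29. Each centring lowered every ratio, so it could not change the sign of *ppk3*. On the poly(A) controls the median of all genes was itself -0.38. Which part of the locus was replaced in strain JP2247 was not analysed here, and the part of the deletion itself in these 2 values was not tested.

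**Figure D5:**
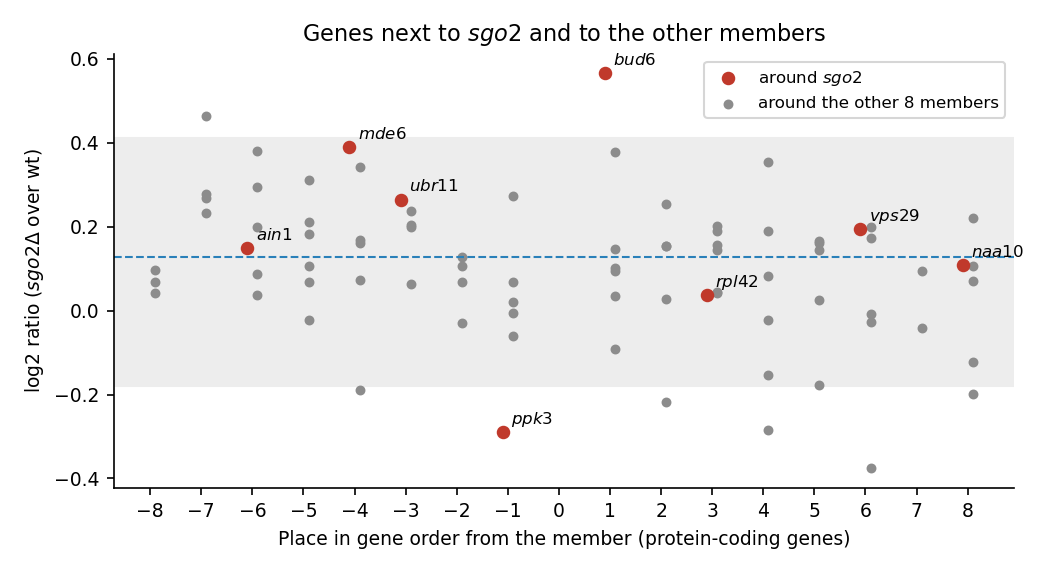
Log2 ratio of *sgo2*Δ over wt by place in gene order from *sgo2* (red, named) or from each of the other 8 members (grey), counted in protein-coding genes; each point is a gene reaching the floor, the grey band holds 95% of all genes and the dashed line is their median (0.13). The genes on either side of *sgo2*, *ppk3* (-0.29) and *bud6* (0.57), fall outside the band on opposite sides.

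The members lie on all 3 chromosomes, with *sgo2*, *bub3* and *hrk1* on chromosome 1, *sgo1*, *pic1* and *nbl1* on chromosome 2 and *bub1*, *ark1* and *bir1* on chromosome 3. In the same assembly 8 of 9 overlap another annotated gene, and 4 overlap a protein-coding one. These 4 are *sgo1*, *ark1*, *bir1* and *nbl1*. The protein-coding genes that overlap *sgo1* (*txc1*) and *bir1* (*tcb1*) were not measured. The gene that overlaps *ark1*, *atp23*, which encodes a mitochondrial protease, had a signal of 2051 in *sgo2*Δ and 1578 in wt (log2 ratio 0.38), and the one that overlaps *nbl1*, the GINS subunit gene *psf2*, had 1822 in *sgo2*Δ and 1646 in wt (0.15). Strand and probe positions were not used here, so the part of an overlapping transcript in a member's signal was not tested.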

How the data were processed

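Poly(A) RNA of 1 *sgo2*Δ and 1 wt culture was hybridized by the authors to GeneChip Yeast Genome 2.0 arrays, scanned and scaled with GCOS 1.4 at its default settings, with *S. cerevisiae* probe sets masked. Values were deposited as linear signal intensities. Of 10928 probe sets, 5748 are listed at 0 on both arrays, and the scale factor is not given in the sources used here. Depth does not apply to arrays, and their number limits the precision.

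Probe sets naming 1 *S. pombe* gene (2917, of which 3 were matched by symbol and the rest by gene identifier to ASM294v3) gave 2898 genes. Apart from the controls, probe sets with signal that matched no single gene there were left out. All shares and calls are thus over the genes kept and not over the whole array. Where a gene had several probe sets, their log2 signals were averaged, and wt was subtracted from *sgo2*Δ. Each member was set beside the spread of 200 genes of like mean signal. No test was made. Members and lists were chosen with earlier results of these data known. The text names every member, the neighbours of *sgo2*, each list's highest and lowest gene and any member or list gene called. Genes called higher outside the members and lists are not named. In addition *moa1*, *rec8*, *mde6*, *rpl42*, *atp23* and *psf2* were chosen after their values were seen, and *txc1* and *tcb1* are named as overlapping genes without a value. Gene positions served for order and overlap only. Alternatives were other scalings, pseudocounts, floors, folds and probe set rules. No sequences were used here. Calculations used Python 3.11.15, scipy 1.17.1, numpy 2.4.6, pandas 2.3.3 and matplotlib 3.10.9.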

Additional observations from a re-analysis of the deposited data

How the results depend on the processing

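No paired analysis was possible because there is a single array for each strain, which also means that none can be omitted. Low signal limits *nbl1*, which stays under 100 on both arrays. Counts of members called (0 higher, 1 lower) were the same with floors of 50, 200 and none, at 1.5-fold, with pseudocounts of 16 and 100, with the brightest probe set, with names matched through the gene identifier and under 4 other scalings. The median log2 ratio of the members, 0.19 with *sgo2* and 0.20 without it, moved to 0.064 and 0.070 after centring on the median of all genes, to 0.031 and 0.034 with quantile normalization and to -0.32 and -0.31 after centring on the poly(A) controls. Centring subtracts the same amount (0.13 or 0.51) from every gene by its construction, and for quantile normalization the cause was not tested. Quantile normalization also gave 1 call among the meiosis genes, *spo6* (log2 ratio -1.02, signal 52.3 in *sgo2*Δ and 105.9 in wt), against 0 as deposited and after centring on the median of all genes. The other settings were not run on the lists. The measured log2 ratio of *sgo2* rests on a signal near 0 in *sgo2*Δ, and was -4.99 with a pseudocount of 16 and -2.73 with one of 100. Of 64 comparison values under an alternative, 57 stayed the same count or moved by less than 0.13 on the log2 scale, the spread of all genes tested. Of 98 single-gene values and list medians, 39 moved by more than the spread of genes of like signal or of all genes.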
